A study of Saccharomyces cerevisiae with 10 samples.

Results

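The nuclear genes of the respiratory chain encode most subunits of the enzymes that pass electrons to oxygen and make ATP in mitochondria. The 38 members were chosen by name. They are 13 genes of ATP synthase, 9 of complex IV, 9 of complex III, 4 of complex II, both cytochrome c genes CYC1 and CYC7, and NDI1. Each was found by its systematic identifier among the 10799 features other than spike-in RNAs, and all 38 passed the filter on low values that kept 9666 features. All 38 identifiers carried the same symbols in the RefSeq annotation.

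Budding yeast, Saccharomyces cerevisiae, was grown in YPD, a glucose medium, to mid-log phase at 30 °C, and total RNA depleted of ribosomal RNA was sequenced by strand in 10 libraries, 2 biological replicates for each of 5 groups. The BY4741 groups were WT (MATa his3Δ1 leu2Δ0 met15Δ0 ura3Δ0), xrn1 (the same markers plus xrn1Δ::kanMX4) and dbp2 (MATa his3Δ0 leu2Δ0 met- lys? ura3Δ0 dbp2Δ::KanMX6), with an empty treatment label. The BMA64-1A groups were WT-Dox (MATa, with can1-100, trp1Δ2 and ura3-1 besides ade2-1, his3-11,15 and the double allele of leu2-3 and leu2-112) and tet-MTR4-Dox, which adds kanMX6-tetOFF::MTR4. Both were kept in 10 μg/mL doxycycline, which shuts off the tetOFF promoter, for 6 hours. The protocol text for doxycycline stands with all 10 samples, and BY4741 is taken as untreated here from its empty treatment label. Xrn1 is the main cytoplasmic exonuclease that degrades RNA from its 5′ end, Dbp2 is a nuclear RNA helicase, and Mtr4 is the helicase that hands RNA to the nuclear exosome.

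In the respiratory chain, NADH dehydrogenases and complex II load electrons onto coenzyme Q, complex III moves them to cytochrome c, and complex IV passes them to oxygen. ATP synthase uses the proton gradient that complexes III and IV build. Yeast has no complex I, and Ndi1, a single protein, takes its place inside the inner membrane. In glucose most of these genes are held below the levels they reach in respiring cells, and the Hap2/3/4/5 activator, which binds CCAAT boxes, raises many of them when respiration is needed. Cytochrome c and subunit 5 of complex IV each have an aerobic gene, CYC1 and COX5A, and an alternative gene favoured at low oxygen, CYC7 and COX5B. Puf3 is an RNA-binding protein that recognises TGTANATA after the stop codon of many messages for mitochondrial proteins.

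CCAAT and TGTANATA were looked up in the R64 genome with its RefSeq annotation, the build that the labels name. CCAAT, on either strand, lay within 250 bases before the start codon or the first 50 bases of the gene in 32 of 38 members (84.2%), against 2583 of 5896 protein-coding genes (43.8%). With 500 bases before the start, it was in 35 of 38 members (92.1%) and 3989 of 5895 protein-coding genes (67.7%). By complex, the narrower window held the box in 12 of 13 genes of ATP synthase, 8 of 9 of complex IV, 7 of 9 of complex III, 4 of 4 of complex II, NDI1, and neither cytochrome c gene. These lines show the box farthest from the start codon in the narrower window for 11 members whose changes are described below, and for CYC7 the box that only the wider window holds. Each is read 5′ to 3′ on the gene's strand with CCAAT, or its complement ATTGG where the box is on the other strand, in capitals.
ATP2: ccaggacaggCCAATtggataaatt
ATP7: cttcgatttgATTGGatatttgtct
ATP14: catacacgaaCCAATtatgcatcat
COX5A: caaaaatcgtCCAATagacgttttc
COX5B: atgacactcaCCAATttcttttttt
QCR9: tatacacgacCCAATcaaacgcggg
RIP1: ccataacggaCCAATcagcgttttg
SDH1: agaaaaaaatCCAATttcatagtac
SDH2: gcggcctcgcATTGGcccaattagc
SDH3: gtccattctgATTGGctgcggtagc
NDI1: ttcattcggaCCAATcatatgaagg
CYC7: gaccttttgcCCAATgaccattcca

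The line of ATP2 lies at chrX:647412-647436 (+ strand) and its box starts 185 bases before the start codon. For ATP7 these are chrXI:408195-408219 (− strand) and 220 bases. For ATP14 these are chrXII:722556-722580 (− strand) and 197 bases. For COX5A these are chrXIV:531545-531569 (+ strand) and 170 bases. For COX5B these are chrIX:154965-154989 (+ strand) and 247 bases. For QCR9 these are chrVII:859669-859693 (− strand) and 207 bases. For RIP1 these are chrV:107003-107027 (+ strand) and 247 bases. For SDH1 these are chrXI:171150-171174 (− strand) and 35 bases. For SDH2 these are chrXII:54077-54101 (− strand) and 160 bases. For SDH3 these are chrXI:179510-179534 (+ strand) and 147 bases. For NDI1 these are chrXIII:30020-30044 (− strand) and 227 bases. For CYC7 these are chrV:80416-80440 (− strand) and 453 bases. A match says that the letters are present and is no measure of binding.

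TGTANATA, where N is any base, was searched on the coding strand in the 200 bases after the stop codon. It was in 5 of 38 members (13.2%) and 843 of 5897 protein-coding genes (14.3%), which are close shares. All 5 sites are shown, with the motif in capitals, and their part in the changes described below was not tested.
ATP1: caaaaagaaaTGTAAATAtagaaatttt
ATP18: tacatatgttTGTATATAgaaatatatt
TIM11: aaaaatgaaaTGTATATAttctagaaca
COX8: gatagatgtgTGTACATAgcgtgcttgg
SDH1: ctcactaattTGTATATAtacctattaa

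Counted from the stop codon, the motif starts at base 50 in ATP1, at chrII:38730-38757 (+ strand), and at base 64 in ATP18, at chrXIII:103902-103929 (− strand). It starts at base 145 in TIM11, at chrIV:1111841-1111868 (− strand), at base 32 in COX8, at chrXII:909680-909707 (− strand), and at base 99 in SDH1, at chrXI:169091-169118 (− strand).

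Values are the deposited normalized densities, which are reads per feature length in arbitrary units. The length recovered from the values equals that of the annotated gene for some members, such as ATP2, and is longer for others, such as ATP1. Comparisons of density between genes thus depend on these lengths. The densities are scaled on ERCC spike-in RNAs, and a change on this scale is called per spike-in RNA. The labels do not say when the spike-in was added, so fewer cells and less RNA per cell cannot be told apart. A second scale, called relative, sets each library on its median protein-coding gene. The median protein-coding gene rose by 1.90 on the log2 scale per spike-in RNA in xrn1, 0.81 in dbp2 and 0.84 in tet-MTR4-Dox, and was at -0.15 in WT-Dox against WT. Calls are limma's adjusted p under 0.05 over all 9666 features, ± is the SE, and differences are of log2(density + 0.00616).

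Libraries held 16.0 M to 33.5 M reads on features and ERCC RNAs together, 1.35% to 3.14% of them on ERCC RNAs. Of protein-coding reads, the members took 0.405% and 0.402% for WT, 0.790% and 0.749% for xrn1, 0.714% and 0.689% for dbp2, 0.640% and 0.640% for WT-Dox, and 0.735% and 0.722% for tet-MTR4-Dox. CYC7 had the fewest reads, 26 in WT replicate 1, and the fewest on any other member in a library was 130. Replicates of a member differed by at most 1.23-fold, in QCR6 of WT-Dox. The targeted genes fell per spike-in RNA, XRN1 by 4.44, DBP2 by 8.53 and MTR4 by 1.62 on the log2 scale, each in its own mutant. The strains also differed at other markers. LYS2 was at 0.00050 and 0.00035 in dbp2 against 1.10 and 0.999 in WT, and MET17 at 1.75 and 1.64 in dbp2 against 0.00125 and 0.00048 in WT. TRP1 had 0 and 0.00069 for WT-Dox but 0.129 and 0.128 for tet-MTR4-Dox. The reads on TRP1 in tet-MTR4-Dox go against the trp1Δ2 of its label. In dbp2, MET17, the gene of met15Δ0, was expressed although the label gives met-, which names no gene, and LYS2 was nearly without reads where the label gives lys?. The part of these markers in the results was not tested.

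In WT the members were well expressed, with ATP synthase on top. The median member had a density of 1.54, at the 84.5th percentile of protein-coding genes, whose median was 0.373. By complex, the WT medians were 2.35 for ATP synthase, 1.53 for complex IV, 1.18 for complex III and 0.650 for complex II, and NDI1 stood at 0.348. ATP2, the catalytic beta subunit of ATP synthase, was the highest at 5.74 and 5.33, followed by ATP1, its alpha subunit, at 4.78 and 4.48. Their WT replicates did not overlap with each other or with those of any other member. The order of ATP2 and ATP1 also rests on the lengths used, 1536 and 2201. The lowest were CYC7 at 0.039 and 0.046, NDI1 at 0.366 and 0.329, and SDH1, the flavoprotein subunit of complex II, at 0.408 and 0.389.

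The order of the genes was not the same in every group. ATP2 was also the highest member in xrn1 (mean 19.3) and WT-Dox (7.05), but ATP15, the epsilon subunit of ATP synthase, was the highest in dbp2 (10.3) and CYC1 in tet-MTR4-Dox (11.6). The lowest was CYC7 in xrn1 (0.702) and WT-Dox (0.0401), SDH1 in dbp2 (0.517) and COX5B in tet-MTR4-Dox (0.382). ATP1 and ATP2 together held 31.8% and 31.4% of member reads for WT, 24.9% and 25.1% for xrn1, 20.8% and 21.0% for dbp2, 27.5% and 27.4% for WT-Dox, and 14.7% and 15.2% for tet-MTR4-Dox.

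**Figure D1:**
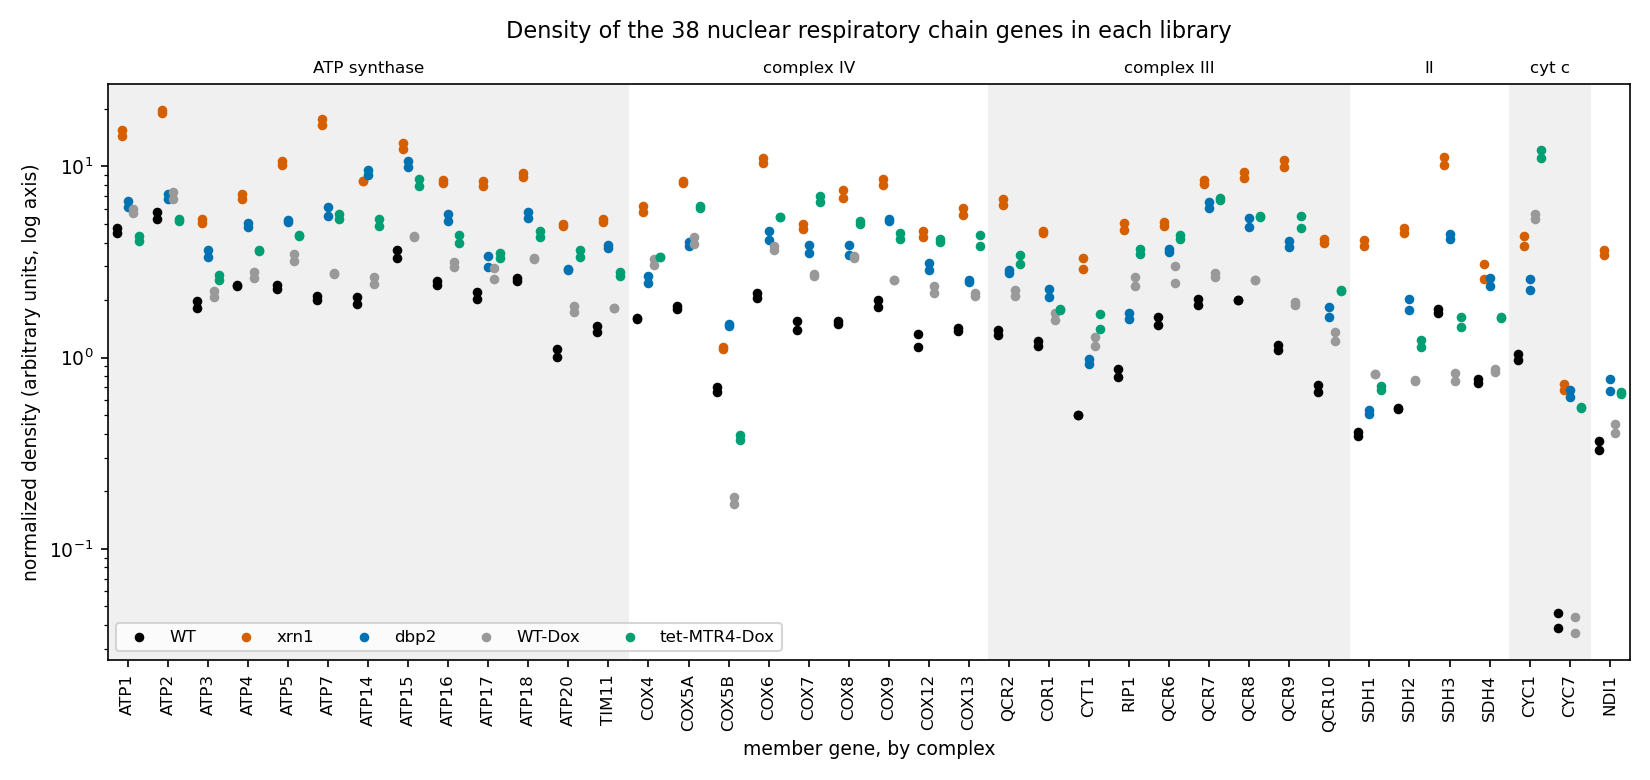
Normalized density (arbitrary units, log axis) of each of the 38 members, with 1 point per library and a colour per group. ATP2 and ATP1 head the WT points, and CYC7 lies far below all other members in WT and WT-Dox only.

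Every member was higher per spike-in RNA in xrn1, together with nearly all other genes. All 38 members were higher, where 95.0% of all features were, and none was lower, where 0.869% were. Their median rise was 2.07 on the log2 scale, against 1.90 for protein-coding genes and 1.90 for all features. On the relative scale 21 members were higher and 8 lower, where 39.3% of features were higher and 38.3% lower, and the members' median was 0.18. Relative to the median level of protein-coding genes in place of their median change, 16 were higher and 14 lower. The count of lower members was 4 without WT replicate 1 and 4 without xrn1 replicate 2.

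The flavoprotein and iron-sulfur subunits of complex II and NDI1 rose well beyond the median gene in xrn1. SDH1 went from 0.408 and 0.389 in WT to 4.12 and 3.84 in xrn1, a relative change of 1.41 ± 0.05 (adjusted p = 1.4e-08). SDH2, the iron-sulfur subunit, had 0.542 and 0.544 in WT against 4.76 and 4.48 in xrn1, and SDH3, a membrane anchor, 1.72 and 1.79 against 11.1 and 10.2. The mutant libraries lay far above both WT libraries for all 3 genes. Per spike-in RNA, 95.0% of features and 98.3% of protein-coding genes were called higher in xrn1, so this alone does not set the 3 apart. Over the 4 genes of complex II the relative median was 0.95, with 3 called higher and none lower. NDI1 rose from 0.366 and 0.329 to 3.66 and 3.45, a relative change of 1.44 ± 0.06 (adjusted p = 3.2e-08).

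Complex III was mostly higher and ATP synthase was split in xrn1. Of 9 complex III genes 7 were relatively higher and 1 lower, with a median of 0.37. QCR9, a small subunit of complex III, had 1.17 and 1.10 in WT against 10.7 and 9.87 in xrn1. Of 9 complex IV genes 5 were higher and 2 lower (median 0.16), and of 13 ATP synthase genes 4 were higher and 5 lower (median -0.02). ATP7, a stalk subunit of ATP synthase, stood apart from its complex, at 2.10 and 1.99 in WT against 17.7 and 16.4 in xrn1. ATP3, the gamma subunit, and ATP4, a stalk subunit, were among the 3 lowest members, with relative changes of -0.44 ± 0.04 and -0.34 ± 0.04. Per spike-in RNA both had risen, ATP3 from 1.97 and 1.81 to 5.31 and 5.05 and ATP4 from 2.40 and 2.36 to 7.19 and 6.78.

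COX5B had the lowest relative change of all members in xrn1. Its densities were 0.699 and 0.659 in WT against 1.11 and 1.13 in xrn1, a rise of 0.72 ± 0.07 per spike-in RNA and a relative change of -1.17 ± 0.05 (adjusted p = 7.2e-08). COX5A had 1.85 and 1.79 in WT against 8.38 and 8.18 in xrn1, a relative change of 0.29 ± 0.03. CYC7 had the highest relative change of all members, 1.98 ± 0.11 (adjusted p = 2.7e-07), with 0.728 and 0.676 in xrn1. CYC1 went from 1.04 and 0.977 to 4.35 and 3.82, a relative change of 0.12 ± 0.07 that was not called. Without xrn1 replicate 2 it was called at 0.20, and it was -0.048 relative to the median level of protein-coding genes.

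In dbp2 most members were higher by more than the median gene. All 38 were higher per spike-in RNA, where 84.8% of features were and 5.32% were lower, with a median of 1.18 against 0.81 for protein-coding genes and 0.95 for all features. On the relative scale 29 were higher and 4 lower, where 41.9% and 28.2% of features were, with a member median of 0.38. Complexes III and IV each had 7 of 9 genes higher and none lower, with medians of 0.43 and 0.33. ATP synthase had 9 of 13 higher and 3 lower (median 0.33), and complex II 3 of 4 higher and 1 lower (median 0.71). NDI1 had 0.769 and 0.670 in dbp2, a relative change of 0.24 ± 0.06 that was 0.094 and not called relative to the median of all features.

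Within ATP synthase, ATP14 parted from the alpha and beta subunits in dbp2. ATP14, a small stalk subunit, had 2.09 and 1.91 in WT against 9.61 and 9.02 in dbp2, a relative change of 1.42 ± 0.05 (adjusted p = 2.4e-08). ATP1 had 6.57 and 6.14 in dbp2 and ATP2 7.16 and 6.74, which were above WT per spike-in RNA but below it on the relative scale, at -0.34 ± 0.04 and -0.47 ± 0.03. ATP14 thus overtook ATP1 and ATP2 by density in dbp2, where its 2 libraries lay above all 4 of theirs. SDH1 and SDH2 of complex II parted too. SDH1 had 0.529 and 0.505 in dbp2, a relative change of -0.43 ± 0.05, while SDH2 had 2.02 and 1.77, a relative change of 0.99 ± 0.06. The density of SDH3 over that of SDH1 was 4.20 and 4.59 for WT, 2.71 and 2.65 for xrn1, and 8.39 and 8.22 for dbp2.

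Both alternative isoform genes, and both aerobic ones, were called higher in dbp2. CYC7 had 0.680 and 0.624, against 0.039 and 0.046 in WT, a relative change of 2.96 ± 0.11 (adjusted p = 3.5e-08). CYC1 had 2.57 and 2.25, a relative change of 0.45 ± 0.07. COX5B had 1.47 and 1.50 and COX5A 4.03 and 3.83, with relative changes of 0.33 ± 0.05 and 0.31 ± 0.03.

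In tet-MTR4-Dox most members were higher per spike-in RNA but by less than the median gene, so their direction depends on the scale. Per spike-in RNA 33 members were higher, where 91.3% of features and 86.6% of protein-coding genes were. There were 3 lower, where 3.27% of features and 5.47% of protein-coding genes were. The members had a median of 0.62 against 0.84 for protein-coding genes and 1.36 for all features. On the relative scale 10 were higher and 21 lower, where 62.5% of features were higher and 24.2% lower, and 40.5% and 39.9% of protein-coding genes. Relative to the median of all features, noncoding RNAs included, 1 was higher and 34 were lower. The members' relative median was -0.20.

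The fall was deepest in the alpha and beta subunits of ATP synthase and in the flavoprotein of complex II. ATP1 had 6.01 and 5.68 in WT-Dox against 4.08 and 4.32 in tet-MTR4-Dox, a relative change of -1.30 ± 0.04 (adjusted p = 9.9e-09). ATP2 had 7.31 and 6.79 in WT-Dox against 5.21 and 5.32 in tet-MTR4-Dox, a relative change of -1.24 ± 0.03. SDH1 had 0.824 and 0.819 in WT-Dox against 0.676 and 0.708 in tet-MTR4-Dox, a relative change of -1.07 ± 0.05. These 3 genes were the members called lower per spike-in RNA too, by -0.48, -0.42 and -0.25 on the log2 scale, and their mutant libraries lay below both controls.

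Most of ATP synthase was lower on the relative scale, 9 of 13 genes with 3 higher (median -0.39). Complex III had 5 of 9 lower and 3 higher (median -0.18), complex IV 4 of 9 lower and 2 higher (median -0.06), and complex II 2 of 4 lower and none higher (median -0.04). NDI1 had 0.452 and 0.405 in WT-Dox against 0.659 and 0.643 in tet-MTR4-Dox, a relative change of -0.22 ± 0.06. QCR9 and QCR7, small subunits of complex III, were the highest members after CYC7, with relative changes of 0.60 ± 0.07 and 0.50 ± 0.04. QCR9 had 1.95 and 1.88 in WT-Dox against 5.52 and 4.74 in tet-MTR4-Dox, and QCR7 2.76 and 2.63 against 6.84 and 6.69. Relative to the median of all features these were 0.038 and -0.053, and neither was called.

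The cytochrome c genes were both higher in tet-MTR4-Dox relative to the median protein-coding gene. CYC7 had 0.044 and 0.036 in WT-Dox against 0.551 and 0.547 in tet-MTR4-Dox, a relative change of 2.77 ± 0.11 (adjusted p = 3.0e-08). CYC1 had 5.64 and 5.30 in WT-Dox against 12.2 and 11.0 in tet-MTR4-Dox, a relative change of 0.26 ± 0.07 that was 0.18 and not called without tet-MTR4-Dox replicate 1, and -0.30, called lower, relative to the median of all features. COX5B had 0.188 and 0.172 in WT-Dox against 0.394 and 0.371 in tet-MTR4-Dox, a relative change of 0.24 ± 0.05 that was -0.32, called lower, relative to the median of all features. COX5A had 4.27 and 3.94 in WT-Dox against 6.24 and 6.08 in tet-MTR4-Dox, a relative change of -0.24 ± 0.03.

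**Figure D2:**
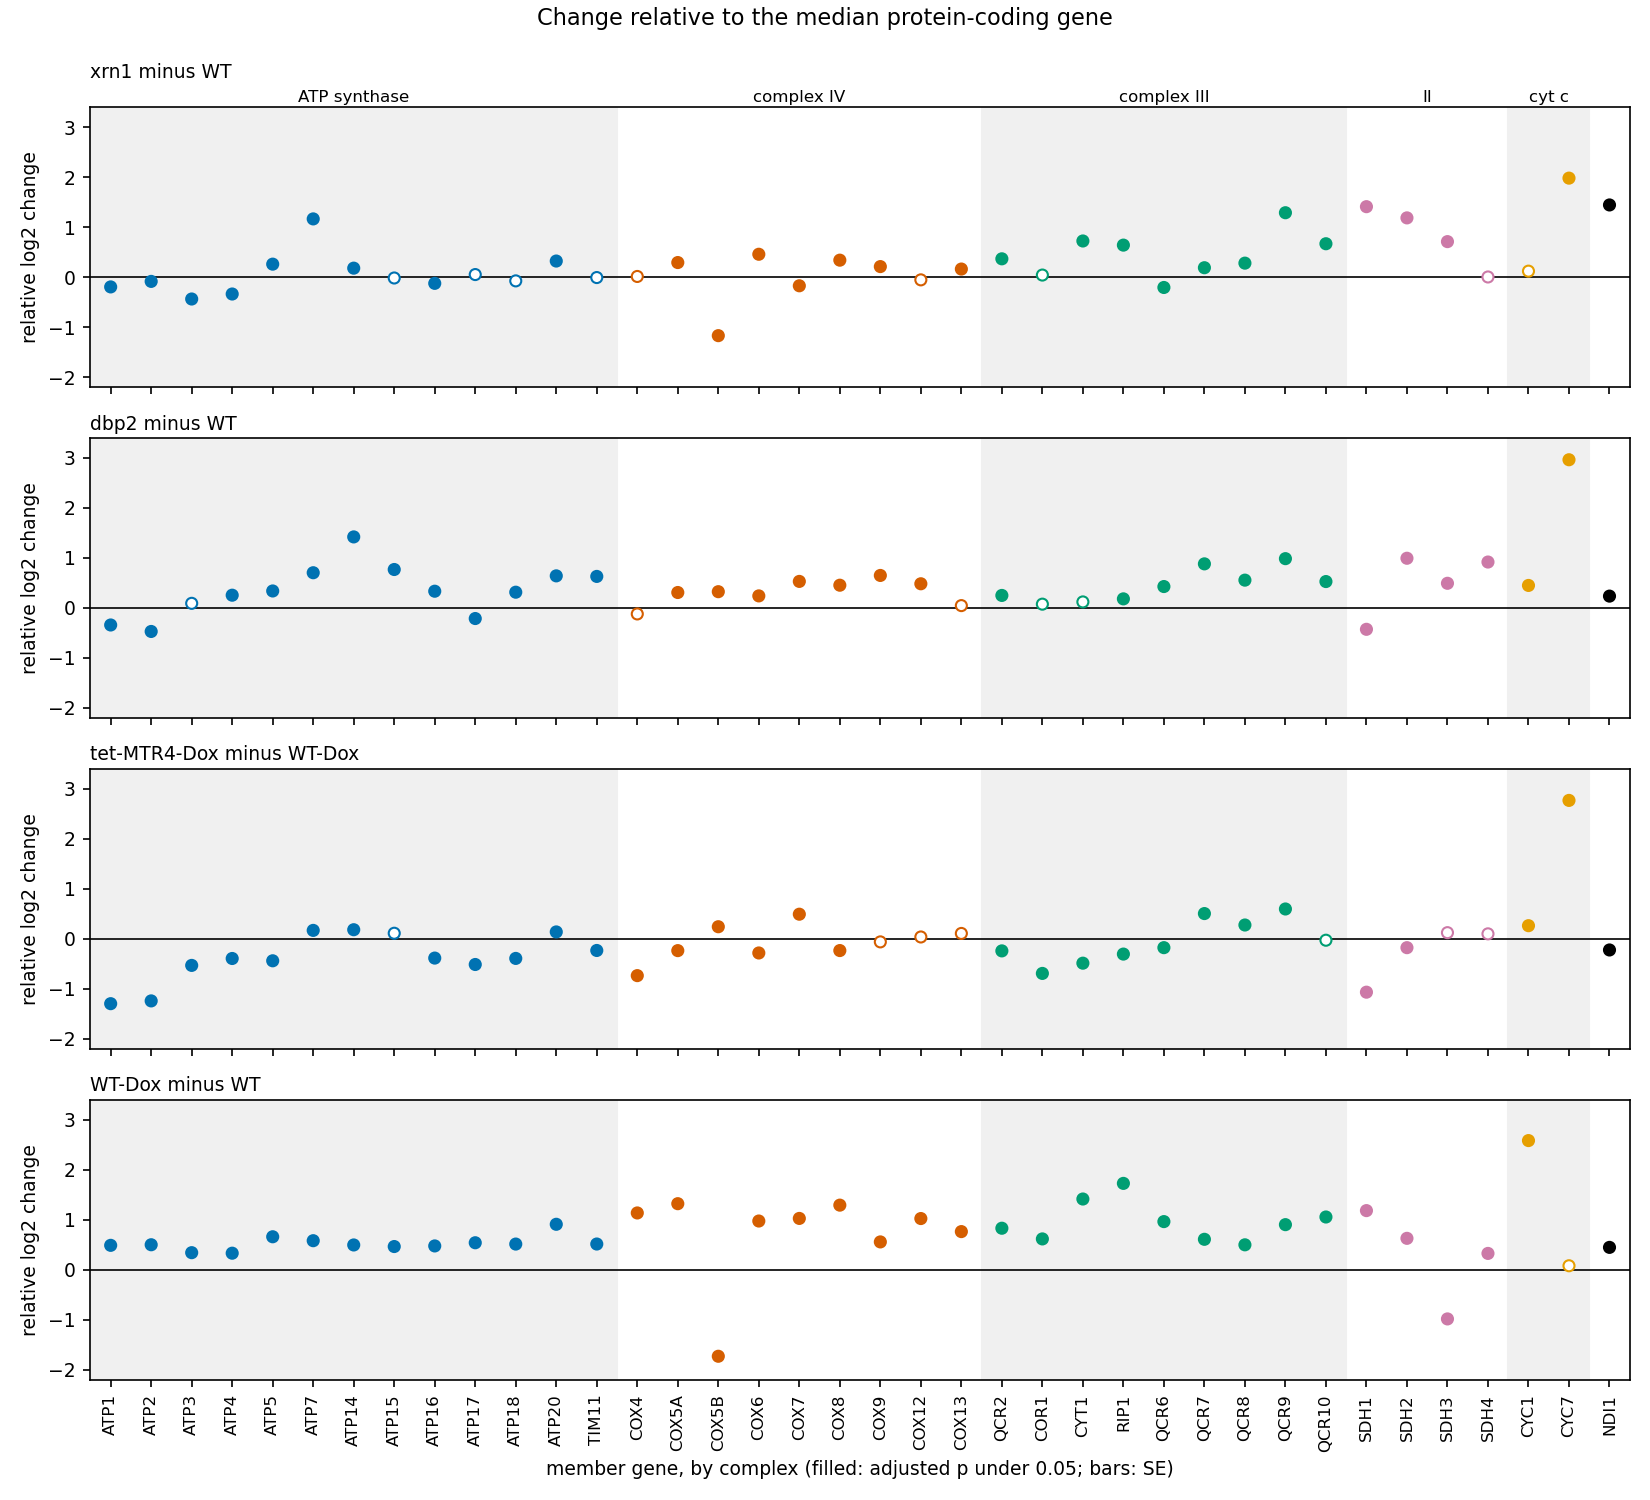
Relative log2 change of each member in 4 comparisons, in 4 panels, with filled points for an adjusted p under 0.05 and bars for the SE where it is longer than the point. CYC7 is the highest point in all 3 mutant panels (1.98, 2.96 and 2.77) and not called in the panel of the wild types (0.08).

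The wild types themselves differed in nearly every member. Strain background and, by the treatment labels, doxycycline differ together between WT-Dox and WT and cannot be told apart. Relative to the median protein-coding gene 35 members were higher in WT-Dox against 2 lower, where 21.7% of features were higher and 21.8% lower, with a median of 0.61. Per spike-in RNA 34 were higher and 2 lower, where 11.5% of features were higher and 33.1% lower. All 13 genes of ATP synthase (median 0.50), all 9 of complex III (0.90), 8 of 9 of complex IV (1.02), 3 of 4 of complex II (0.47) and NDI1 (0.44 ± 0.06) were higher on the relative scale.

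CYC1 differed most, at 1.04 and 0.977 in WT against 5.64 and 5.30 in WT-Dox, a relative change of 2.58 ± 0.07 (adjusted p = 2.9e-08). RIP1, the Rieske iron-sulfur protein of complex III, had 0.876 and 0.795 in WT against 2.64 and 2.37 in WT-Dox (1.72 ± 0.05). CYT1, cytochrome c1, had 0.504 and 0.503 in WT against 1.28 and 1.15 in WT-Dox (1.41 ± 0.08). SDH1 was higher in WT-Dox by 1.18 ± 0.05 on the relative scale. The 2 members called lower were COX5B, by -1.73 ± 0.05, and SDH3, by -0.99 ± 0.07. SDH3 had 1.72 and 1.79 in WT against 0.835 and 0.755 in WT-Dox, which brought its density over that of SDH1 from 4.20 and 4.59 to 1.01 and 0.922. COX5A was higher in WT-Dox by 1.32 ± 0.03, opposite to COX5B. CYC7 had a relative change of 0.08 ± 0.11, which was not called, on 26 to 41 reads per library.

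The 2 isoform pairs did not move together across the groups. The density of COX5B over that of COX5A was 0.378 and 0.368 for WT, 0.132 and 0.139 for xrn1, and 0.364 and 0.393 for dbp2. It was 0.0440 and 0.0436 for WT-Dox and 0.0631 and 0.0609 for tet-MTR4-Dox. The dbp2 values spanned those of WT, and xrn1 lay below both. The density of CYC7 over that of CYC1 was 0.037 and 0.047 for WT, 0.167 and 0.177 for xrn1, and 0.264 and 0.278 for dbp2. It was 0.00780 and 0.00682 for WT-Dox and 0.0451 and 0.0496 for tet-MTR4-Dox. Each mutant lay above both libraries of its own wild type. COX5B has 2 coding exons in the annotation, as have QCR9 and QCR10.

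**Figure D3:**
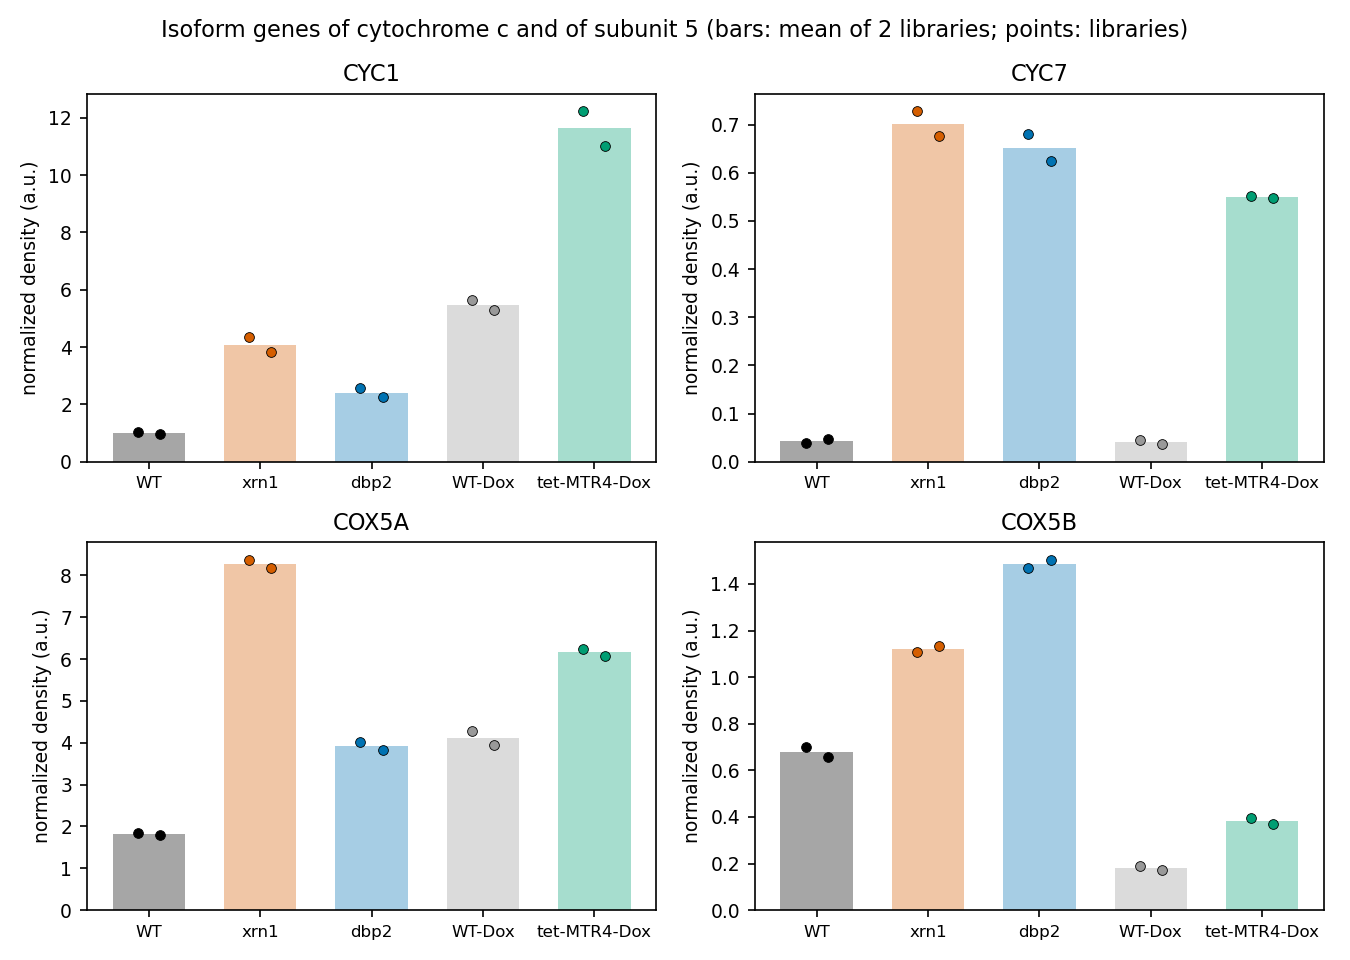
Normalized density (arbitrary units, linear axes from 0) of CYC1, CYC7, COX5A and COX5B in the 5 groups, with bars for the mean of 2 libraries and points for the libraries. CYC7 is near 0.04 in both wild types and between 0.547 and 0.728 in all 6 mutant libraries, while COX5B is lowest in WT-Dox (0.188 and 0.172).

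These 4 genes lie on 4 chromosomes, and none overlaps another annotated gene. CYC1 (YJR048W) is at chrX:526335-526664 and CYC7 (YEL039C) at chrV:79636-79977. COX5A (YNL052W) is at chrXIV:531725-532186 and COX5B (YIL111W) at chrIX:155222-155765. Of the other members that moved most, ATP1 (YBL099W) is at chrII:37053-38690, ATP2 (YJR121W) at chrX:647607-649142 and ATP14 (YLR295C) at chrXII:721999-722373. SDH1 (YKL148C) is at chrXI:169207-171129 and NDI1 (YML120C) at chrXIII:28266-29807. The positions of unannotated noncoding transcripts that may overlap the members were not used here.

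Set directly against dbp2, xrn1 had higher levels of most members per spike-in RNA, as of most protein-coding genes. The count was 34 higher, where 77.0% of features and 88.3% of protein-coding genes were. It was 1 lower, COX5B, where 8.55% of features and 4.95% of protein-coding genes were. On the relative scale 15 were higher and 19 lower, where 34.2% of features were higher and 42.7% lower. Without xrn1 replicate 1 or without dbp2 replicate 2 the count of higher members was 9, and relative to the median level of protein-coding genes 8 were higher and 22 lower. SDH1 differed most, by 1.84 ± 0.05, followed by NDI1 (1.21 ± 0.06) and CYT1 (0.60 ± 0.08). The lowest were COX5B (-1.50 ± 0.05), ATP14 (-1.24 ± 0.05) and CYC7 (-0.98 ± 0.11). CYC1 was lower by -0.33 ± 0.07, and COX5A, at -0.02 ± 0.03, was not called, but was called lower at -0.14 relative to the median level of protein-coding genes. ATP synthase had 9 of 13 genes relatively lower in xrn1 than in dbp2, while complex II had 3 of 4 and complex III 5 of 9 relatively higher.

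The effect of Mtr4 depletion was tested against that of each deletion, with no library shared. Strain background, doxycycline by the treatment labels, and depletion in place of deletion differ together between these effects. They cannot be told apart from the part of the mutated gene. The controls differed too, with a relative member median of 0.61 for WT-Dox against WT, and the part of this in the differences was not tested. Against dbp2, the relative effect of Mtr4 depletion was lower for 33 members and higher for none, where 18.5% of features were lower and 53.5% higher. For protein-coding genes these shares were 29.4% and 32.6%. All 13 genes of ATP synthase, all 9 of complex III, all 4 of complex II, 6 of 9 of complex IV and NDI1 were in that count, with a member median of -0.58. The largest differences were in ATP14 (-1.24 ± 0.07), SDH2 (-1.17 ± 0.09) and ATP1 (-0.96 ± 0.06), and SDH1 differed by -0.64 ± 0.07, COX5A by -0.55 ± 0.05 and NDI1 by -0.46 ± 0.08. The smallest were in COX13 (0.06 ± 0.08), COX7 (-0.04 ± 0.08) and COX5B (-0.08 ± 0.07), none of them called. All 38 members, these 3 included, were lower relative to the median of all features, with COX13 at -0.35, COX7 at -0.45 and COX5B at -0.50.

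On the scale of the median protein-coding gene, the cytochrome c genes were not called different between these effects. The difference was -0.19 ± 0.10 for CYC1 and -0.20 ± 0.15 for CYC7. It was called for CYC1 at -0.27 without tet-MTR4-Dox replicate 1 and for CYC7 at -0.36 without WT replicate 2. Both were called lower, at -0.60 and -0.61, relative to the median of all features. Of the 29 members called higher in dbp2, 10 were called higher and 13 lower in tet-MTR4-Dox, and all 4 called lower in dbp2 were also lower in tet-MTR4-Dox.

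**Figure D4:**
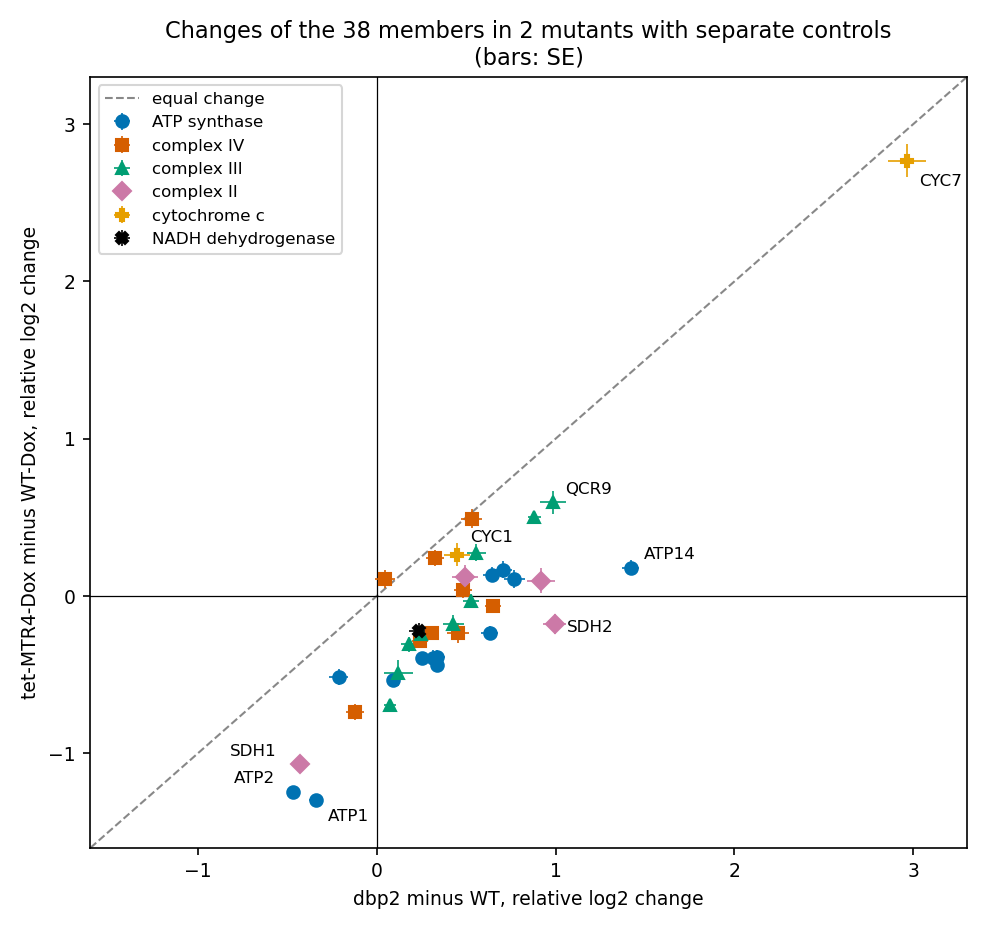
Relative log2 change in dbp2 (horizontal) and in tet-MTR4-Dox (vertical) of the 38 members, with bars for the SE, a symbol per complex and a dashed line of equal change. All points except COX13 lie under the line, with ATP14 (1.42 and 0.18) and SDH2 (0.99 and -0.18) far under it and CYC7 (2.96 and 2.77) close to it.

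Against xrn1, the relative effect of Mtr4 depletion was lower for 24 members and higher for 4, where 23.0% of features were lower and 57.1% higher. For protein-coding genes these shares were 35.8% and 39.7%. Relative to the median of all features 35 were lower and 1 higher, and relative to the median level of protein-coding genes 19 were lower and 7 higher. SDH1 (-2.48 ± 0.07), NDI1 (-1.67 ± 0.08) and SDH2 (-1.36 ± 0.09) differed most. COX5B (1.41 ± 0.07), CYC7 (0.79 ± 0.15) and COX7, a small subunit of complex IV (0.66 ± 0.08), went the other way. Relative to the median of all features, CYC7 and COX7 were at 0.31 and 0.19 and not called. COX5A differed by -0.53 ± 0.05, and CYC1, at 0.14 ± 0.10, was not called. It was called lower at -0.34 relative to the median of all features and called higher at 0.29 relative to the median level of protein-coding genes.

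Across the 38 members, longer features had lower relative changes in dbp2 and tet-MTR4-Dox. Spearman's correlation of feature length with relative change was -0.64 in dbp2 and -0.67 in tet-MTR4-Dox, against -0.30 and -0.17 across 5613 protein-coding genes. In xrn1 it was 0.07 for the members, and in WT-Dox against WT -0.03. For xrn1 minus dbp2 it was 0.54, against 0.28 across protein-coding genes. For the effect of Mtr4 depletion it was -0.63 minus that of xrn1 and -0.24 minus that of dbp2, against -0.15 and 0.20. The genes share the same libraries, and the lengths, from 337 for ATP15 to 2577 for SDH1, are those behind the deposited densities. The part of length in the results above was not tested.

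Other genes of the pathway were read from lists, on the relative scale unless said otherwise. Over all features the shares higher and lower were 39.3% and 38.3% in xrn1, 41.9% and 28.2% in dbp2, and 62.5% and 24.2% in tet-MTR4-Dox, and over protein-coding genes they were 42.0% and 41.4%, 39.8% and 39.7%, and 40.5% and 39.9%. The counts of these short lists are to be read against those shares. The 7 mitochondrially encoded subunits were all lower in xrn1 (median -0.92) and 6 of 7 were lower in tet-MTR4-Dox (-0.57), while in dbp2 2 were higher and 1 lower (0.12). Per spike-in RNA 6 of the 7 were higher in xrn1. ATP8, a subunit of ATP synthase, was the lowest in xrn1 (-2.62 ± 0.67) and ATP6, which forms its proton channel, in tet-MTR4-Dox (-1.35 ± 0.12). The densities of ATP8 were low and uneven, 0.277 and 0.130 in WT against 0.117 and 0.109 in xrn1. With each library left out, the change of ATP8 in xrn1 ran from -3.10 to -2.13. Of the 11 genes of the TCA cycle 8 were lower in xrn1 with 2 higher (median -0.33), where 38.3% of features were lower, 9 in dbp2 with none higher (-0.51) and 9 in tet-MTR4-Dox with 1 higher (-0.80). The lowest were LPD1, lipoamide dehydrogenase, in xrn1 (-1.20 ± 0.03) and ACO1, aconitase, in dbp2 (-1.05 ± 0.06) and tet-MTR4-Dox (-1.39 ± 0.06).

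Among 6 carriers, the 2 minor ADP/ATP carriers parted. AAC1 was higher in xrn1 (1.26 ± 0.06), dbp2 (1.84 ± 0.06) and tet-MTR4-Dox (0.76 ± 0.06), and AAC3, which is favoured at low oxygen, was lower in them (-0.48 ± 0.13, -1.95 ± 0.13 and -1.44 ± 0.13). In all, 3 carriers were higher and 2 lower in xrn1, 1 and 4 in dbp2, and 1 and 5 in tet-MTR4-Dox.

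Of 7 small or associated subunits 4 were higher and 1 lower in xrn1, 7 and none in dbp2, and 3 and 3 in tet-MTR4-Dox. COX26, a small protein bound to complex IV supercomplexes, had 0.072 and 0.052 for WT, 0.723 and 0.651 for xrn1, and 5.93 and 5.31 for dbp2. It had 0.061 and 0.068 for WT-Dox and 0.651 and 0.689 for tet-MTR4-Dox. Its relative change was 1.47 ± 0.12 in xrn1, 5.58 ± 0.12 in dbp2 and 2.43 ± 0.12 in tet-MTR4-Dox. Of 5 other electron donors 3 were higher and 2 lower in xrn1, 3 and 1 in dbp2, and 1 and 2 in tet-MTR4-Dox, where GUT2, the mitochondrial glycerol 3-phosphate dehydrogenase, was at 1.40 ± 0.07.

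Of 20 assembly factors for complex IV 13 were higher and 1 lower in xrn1, where 39.3% of features were higher, with SCO1, a copper chaperone, at 1.20 ± 0.06. In dbp2 7 were higher and 7 lower, from PET100 (1.28 ± 0.07) to PET122 (-1.21 ± 0.13), and in tet-MTR4-Dox 7 and 10, from PET122 (1.02 ± 0.13) to COX10 (-1.11 ± 0.07), counts near the shares of protein-coding genes. Of 11 for complex III 9 were higher and none lower in xrn1, 7 and 1 in dbp2, and 4 and 5 in tet-MTR4-Dox, with CYT2, cytochrome c1 heme lyase, at 2.17 ± 0.05 in xrn1. Of 9 for ATP synthase 8 were higher and none lower in xrn1, where ATP22 was at 1.29 ± 0.07, 3 and 3 in dbp2, and 4 and 2 in tet-MTR4-Dox. Of 4 for complex II 2 were higher in xrn1, 4 in dbp2 and 2 in tet-MTR4-Dox, and none was lower. SDH7 was at 1.00 ± 0.07 in xrn1, and SDH6 was the highest of them in xrn1 (1.25 ± 0.13), dbp2 (1.73 ± 0.13) and tet-MTR4-Dox (1.87 ± 0.13). Of 10 coenzyme Q genes 3 were higher and 4 lower in xrn1, 4 and 5 in dbp2, and 2 and 5 in tet-MTR4-Dox, with COQ10 at 1.01 ± 0.07 in dbp2.

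Of 9 regulators 7 were higher and 1 lower in xrn1, 5 and 1 in dbp2, and 2 and 1 in tet-MTR4-Dox. HAP4, the activating subunit of the CCAAT-binding complex, had 0.398 and 0.396 in WT against 3.95 and 3.78 in xrn1, a relative change of 1.37 ± 0.08 (adjusted p = 5.4e-07). It had 0.652 and 0.560 in dbp2 and a relative change of -0.20 ± 0.08 that was not called. It was called lower in dbp2 at -0.28 without dbp2 replicate 1, at -0.20 with only the libraries compared, at -0.22 with voom, at -0.34 relative to the median of all features and at -0.24 relative to the median level of protein-coding genes. In tet-MTR4-Dox the change of HAP4 was -0.01 ± 0.08, not called, and -0.57 and called relative to the median of all features. PUF3 had 0.437 and 0.385 in WT against 2.19 and 2.24 in xrn1, a relative change of 0.53 ± 0.06. In dbp2 it was at -0.18 ± 0.06, not called without WT replicate 1 (-0.14) or without either dbp2 library (-0.17 and -0.19). ROX1, the repressor of low-oxygen genes such as CYC7 and AAC3, had 0.110 and 0.118 in WT against 1.06 and 1.02 in dbp2, a relative change of 2.33 ± 0.11.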

How the data were processed

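The deposited table gives normalized densities, read here as signal, for 10 libraries, and 5 columns of group means that were not used. Per the submitters' processing notes, the authors' tools included DESeq2, featureCounts 2.0.0, HISAT2 2.2.0 and Trim Galore, with no role for each, and the R64 genome. Counting by strand is not given in the sources used here. For 100% of features with a value above 0, a length was found that makes the values whole numbers of reads, at a tolerance of 0.02. The values are thus read as reads divided by feature length and scaled per library. This length was fitted freely for each feature, and it equals the RefSeq gene length for 11.8% of protein-coding features. The values also show that 73 ERCC RNAs have the same median in every library. The scaling on ERCC RNAs is thus inferred.

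A feature entered the fit with a mean density of at least 0.0344, the 10th percentile. Log2(density + 0.00616) was fitted with limma 3.58.1 in R 4.3.3 (lmFit, eBayes with a trend) over all 10 libraries, 1 coefficient per group, with Benjamini-Hochberg adjustment over 9666 features. The spread is thus pooled over the 5 groups. Since 1 read is worth less in a longer feature, voom on the recovered reads was the count-based alternative, and no negative-binomial test was run.

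On the relative scale each library was shifted by the median, over protein-coding genes, of a gene's deviation from its own mean. The planned wording could also mean the median level of these genes. That reading was computed first, the choice was made after both were seen, and the other is an added alternative.

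The members and lists were chosen with earlier results of these data known. Changes are given for the 3 highest and 3 lowest members of each comparison and always for CYC1, CYC7, COX5A, COX5B, NDI1 and SDH1. From each list, the called genes with the highest and lowest change in a mutant qualify, and those past 1 on the log2 scale are named, a limit added later. The parallel AAC1 and AAC3 values are given with them. Motifs were searched with Python 3.11.15.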

Additional observations from a re-analysis of the deposited data

How the results depend on the processing

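Alternatives were a pseudocount 4 times larger or smaller, no filter, only the compared groups' libraries, voom on the recovered reads, other centrings, the replicate number as a block, and each library left out. For the counts of members, 162 of the recomputed values stayed within 1.5 times and 10 did not, and 108 and 4 when libraries were left out. For single genes 1308 kept direction and call, 20 lost the call, 15 gained one and 15 reversed. With libraries left out these were 761, 24, 6 and 9. The causes were not tested.

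Centred on all features, tet-MTR4-Dox against WT-Dox had 1 member higher and 34 lower, and QCR7 was at -0.053, CYC1 at -0.30, COX5B at -0.32, COQ10 at -0.084, AEP3 at -0.092, SDH7 at -0.33 and IDH1 at -0.36. Its effect minus that of xrn1 had 1 member higher, with CYC1 at -0.34, and minus that of dbp2 put COX13 at -0.35. COX5A in xrn1 minus dbp2 was at 0.046 so centred, 0.0075 with the larger pseudocount and 0.0072 with no filter. With the larger pseudocount, 5 members were lower in xrn1 and HAP4 was at 0.0098 in tet-MTR4-Dox. Centred on the median level of protein-coding genes, which was added after the data were seen, 14 members were lower in xrn1, with CYC1 at -0.048 and ATP11 at -0.027. So centred, 8 were higher in xrn1 minus dbp2 and 7 in the effect of Mtr4 depletion minus that of xrn1.

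Leaving out each library gave 4 to 8 members relatively lower in xrn1 and 9 to 15 higher in xrn1 minus dbp2. HAP4 in tet-MTR4-Dox then ran from -0.13 to 0.10, and CYC7 in WT-Dox against WT from -0.088 to 0.24 relatively and from -0.19 to 0.051 per spike-in RNA. In the effect of Mtr4 depletion minus that of dbp2, COX13 ran from -0.027 to 0.15 and COX7 from -0.12 to 0.040.

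Replicate numbers were not taken to pair the samples. Over all kept features, differences between the 2 replicates correlated between groups at -0.0785 to 0.0468, after each library was centred. Such correlations cannot show a shift shared by a whole library or by the members alone. Per spike-in RNA, the median member was above replicate 2 in replicate 1 by 0.08 for WT on the log2 scale. It was 0.10 for xrn1, 0.11 for dbp2, 0.10 for WT-Dox and -0.01 for tet-MTR4-Dox. With the replicate number as a block, 2 members were lower per spike-in RNA in xrn1 than in dbp2 in place of 1, as with voom (2) and with the compared libraries only (2), and no other count of members moved by over 1.5 times. CYC7 in the wild types rests on 26 to 41 reads per library.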

Other observations

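Between the wild types, other genes of the pathway were counted on the relative scale, where 21.7% of features were higher in WT-Dox and 21.8% lower, and 27.4% and 28.7% of protein-coding genes. How these lists differ from the members was not tested. Of the 7 mitochondrially encoded subunits 5 were higher and 1 lower in WT-Dox than in WT. Of 20 assembly factors of complex IV 9 were higher and 3 lower, of 11 of complex III 7 and none, of 9 of ATP synthase 4 and none, and of 4 of complex II 2 and none. Of 11 TCA cycle genes 3 were higher and 3 lower. Of 7 small or associated subunits 2 were higher and 1 lower, of 5 other electron donors 2 and 1, of 10 coenzyme Q genes 2 and 5, and of 6 carriers 3 and 1. Of 9 regulators 3 were higher and 2 lower. HAP4 was higher by 0.52 ± 0.08. HAP1, a heme-responsive activator of CYC1 that was picked out after its values were seen, gave densities of 0.983 and 0.911 for WT but of 0.310 and 0.266 for WT-Dox, a relative change of -1.55 ± 0.04. BY4741 belongs to the S288C family, whose HAP1 gene is known to carry a Ty1 element. The part of HAP1 in the level of CYC1 was not tested.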
